A study of Mus musculus with 16 samples.

Results

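Glutathione S-transferases are enzymes that join the tripeptide glutathione to reactive or foreign molecules. The 10 genes described here (Gsta2, Gsta3, Gsta4, Gstm1, Gstm2, Gstm3, Gstm6, Gstp1, Gstp2 and Gstt3) were chosen with earlier results of these data known. They were found by symbol, by matching the gene identifiers of the deposited tables to a table of gene names. They are 10 of 78317 genes in the tables, and all 10 were among the 14781 genes with enough counts to be tested. RNA was measured in 16 samples of whole, powdered liver, each called a liver below, from mice of the inbred strain C57BL/6J, labelled wild type. The 4 groups of 4 livers came from females and males on a normal diet (a LabDiet chow in which fat gave 4.5% of calories) and females and males on a high fat diet (D12492 of Research Diets, in which fat gave 60%). All mice arrived at 6 weeks of age and ate their diet for 10 weeks. The diets came from different makers, so the fat and the rest of the diet cannot be told apart. The hour of tissue collection was not given in the sources used here. The design asks how liver RNA responds to high dietary fat in each sex. The labels number the replicates of a group and say no more of how they were taken, so the p-values measure only the spread between these samples, which may in part be technical.

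The cytosolic transferases fall into classes by sequence. Alpha enzymes (Gsta) are abundant in hepatocytes, and Gsta4 is known for its preference for the lipid peroxidation product 4-hydroxynonenal. Mu enzymes (Gstm) conjugate epoxides and other electrophiles, and the pi enzymes (Gstp) are known to be high in male mouse liver. Theta enzymes (Gstt) act on small halogenated compounds and sulfates. Conjugates leave the cell through export pumps and are trimmed to mercapturates, which are excreted. Several of these genes are textbook targets of the oxidant-responsive factor NRF2 (Nfe2l2) and of the nuclear receptors CAR (Nr1i3) and PXR (Nr1i2), which sense foreign compounds.

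Promoter sequences of RefSeq (GRCm38.p6, from 250 bases before to 50 bases after an annotated start) were present for 9 of the 10 genes, in 13 windows. Those of the pi pair are shown because the copies lie next to each other on chromosome 19 and share sequence both upstream and in the transcript. Only the sharing in the transcript bears on how well their RNA can be told apart. Both stretches stop 80 bases before the start, and the capitals mark a block of 43 bases identical in both genes.
Gstp1, chr19:4037993-4038156, minus strand: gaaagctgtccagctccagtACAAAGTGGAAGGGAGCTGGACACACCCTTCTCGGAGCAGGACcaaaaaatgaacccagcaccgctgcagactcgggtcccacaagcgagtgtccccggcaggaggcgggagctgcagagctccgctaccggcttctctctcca
Gstp2, chr19:4042302-4042471, minus strand: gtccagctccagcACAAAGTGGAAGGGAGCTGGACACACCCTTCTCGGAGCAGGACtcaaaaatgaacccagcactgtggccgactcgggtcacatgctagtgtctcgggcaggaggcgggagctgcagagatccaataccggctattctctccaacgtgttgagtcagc
The block begins 224 bases before the start of Gstp1 and 237 bases before the start of Gstp2. Over the 250 bases upstream, 208 of 235 aligned bases of the pair were identical, and in the other 35 pairs of genes the longest identical block was at most 11 bases.

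The windows were searched on both strands for 3 motifs of factors known to act on this family. The core of the antioxidant response element, TGACNNNGC, which NRF2 binds, was found in 12.4% of all 32851 promoter windows and in 1 of the 9 genes. That match was in Gsta3 and began 121 bases before its start. It is shown in capitals because it was the one match to the NRF2 element among the genes.
Gsta3, chr1:21240438-21240497, plus strand: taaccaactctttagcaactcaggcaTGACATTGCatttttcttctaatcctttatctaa
The AP-1 element TGANTCA, which can lie inside a longer form of the antioxidant response element, was found in 7.81% of windows and in 2 of the 9 genes. These were Gstp1, beginning 74 bases before its start, and Gstp2, beginning 89 bases before its start, with the same letters TGAGTCA. The STAT element TTCNNNGAA was found in 8.3% of windows and in 1 of the 9 genes, Gstm6. These matches describe letters in a window and not binding.

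Each library held between 22228115 and 41420589 expected counts. Xist lay between 116 and 340 CPM (counts relative to the scaled library size) in the female livers and at no more than 1.6 CPM in the male livers, and the Y-linked gene Ddx3y lay between 83.8 and 132 CPM in males and at no more than 0.549 CPM in females, so the sex of every library matched its label. Albumin, the defining hepatocyte transcript, lay between 37640 and 96180 CPM in all 16 livers. The libraries of males on the high fat diet were not alike. Replicates 2 and 3 differed from each other by a chi-square of 4 per gene, where sampling alone gives 1 and the 23 other pairs of livers within a group gave 20.7 to 307. They were counted as 2 samples. Whether they came from 2 animals is not given by the labels and was not tested. If they did not, p-values that use the high fat males rest on fewer animals than samples. For the 10 genes, diet and sex values below are also given without both replicates, a comparison chosen after seeing the data. This was done where leaving them out changed a call or direction, or moved a called value by more than 1.5 times. Such fits leave only replicates 1 and 4 of the high fat males. Their smaller p-values are not stronger evidence than those from all livers. Summed over 7 markers of pancreatic acinar cells, replicates 2 and 3 of the high fat males held 28.4 and 11.2 CPM with no marker at 0. Replicates 1 and 4 held 0.818 and 0.398 CPM with 4 and 6 markers at 0. Replicate 4 of the normal diet females held 6.16 CPM, also with no marker at 0. Summed over 5 adipocyte markers, the high fat males held 0.966, 10.6, 10.9 and 5.8 CPM in replicates 1 to 4. Cfd made up most of this in replicates 2 to 4, at 9.64, 10.2 and 3.76 CPM, and was at 0.372 CPM in replicate 1. Adipoq (0.409, 0.611, 0.412 and 1.46 CPM) and Plin1 (0.186, 0.136, 0.103 and 0.487 CPM) were highest in replicate 4. Lep and Retn were at no more than 0.2405 CPM in these males. The part of these signals in the results below was not tested.

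In females, 2 of the 10 genes passed the test for diet, Gstm3 and Gstm6, and both fell. A gene was called at an adjusted p under 0.05 (edgeR quasi-likelihood test, Benjamini-Hochberg over all tested genes). Of all tested genes 11.5% were called in females, 5.74% higher and 5.76% lower. In males, 5 of the 10 fell (Gstm3, Gstm1, Gstm6, Gstp1 and Gstp2) and none rose, beside 11.4% of all genes called, 6.03% higher and 5.36% lower. The median log2 fold change of the 10 genes was -0.4 in females and -0.98 in males, against 0 and 0.01 over all genes. Because the 10 were chosen with earlier results known, their counts and medians beside those of all genes are a description only. Between the sexes on the normal diet 4 of the 10 differed (Gstt3 and Gstm2 higher in females, Gstp1 and Gstp2 lower), beside 15.7% of all genes, 7.03% higher and 8.68% lower in females. Among high fat livers 3 of the 10 differed (Gstm3 and Gstm2 higher in females, Gstp1 lower), beside 20.4%, 8.84% higher and 11.6% lower. In CPM, the livers of the 2 diets did not overlap for 5 of the 10 genes in females and for 5 in males. All of these were lower on the high fat diet. Of all genes 18.3% did not overlap in CPM in females (9.55% lower) and 18.5% in males (9.13% lower). In TPM (length-corrected transcript share), the diets did overlap for Gstm1, Gstm6 and Gstt3 in females and for Gstp2 in males. The difference between the diet responses of the sexes passed the test for 0 of the 10 (edgeR), beside 0.677% of all genes called. Here 4 genes (Gstm1, Gstm3, Gstp1 and Gstp2) had an unadjusted p under 0.05, as did 13% of all genes, and DESeq2 called 1, Gstp2, beside 2.31% of all genes. Without replicates 2 and 3 of the high fat males, 4 of the 10 were called for diet in females (11% of all genes), 8 for diet in males (7.61%), 2 for the interaction (0.844%) and 10 between the sexes on the high fat diet (17.4%).

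**Figure D1:**
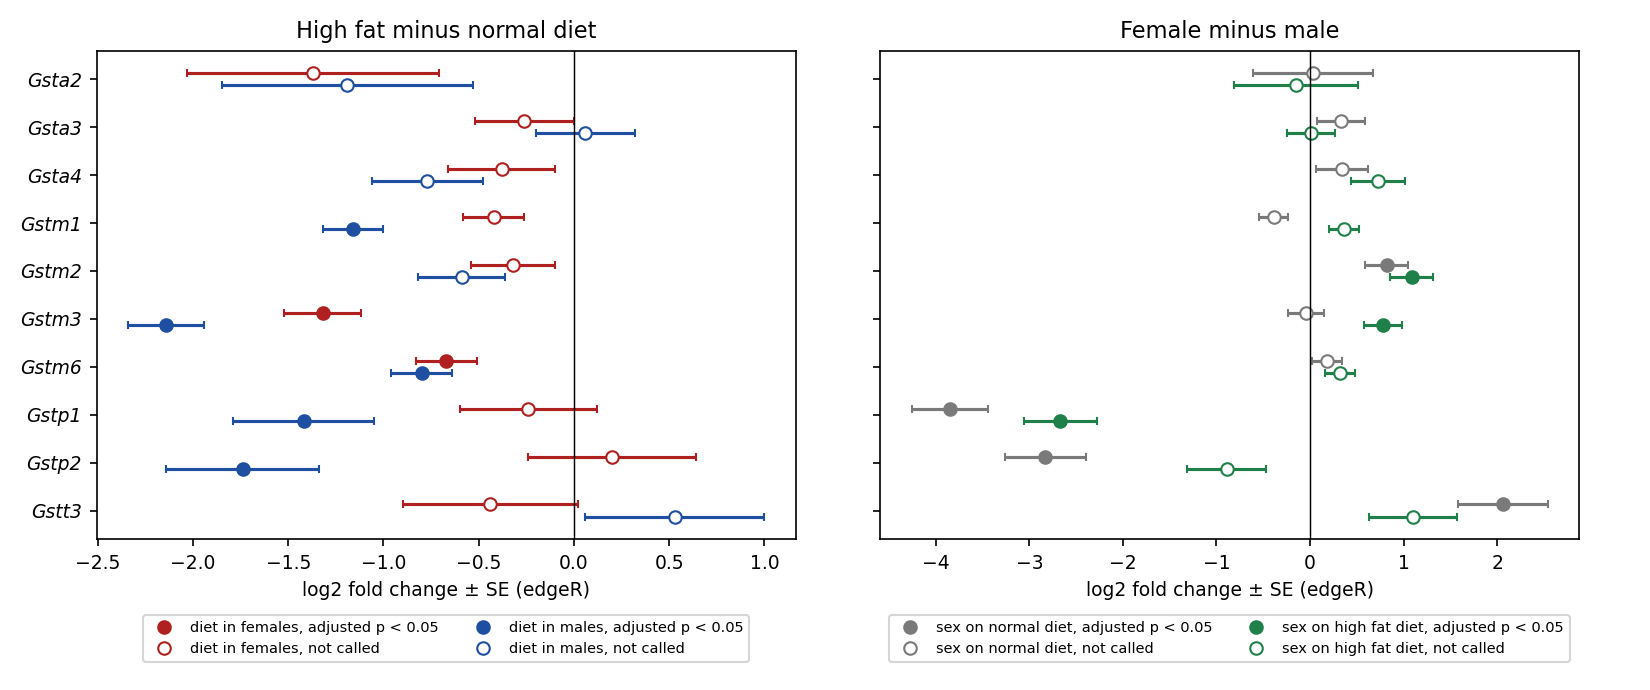
Log2 fold changes (x axis, edgeR, error bars of 1 SE) of the 10 genes (y axis) for high fat minus normal diet in each sex (left) and for female minus male on each diet (right), with filled points for calls. Gstm3 lies at -1.32 in females and -2.14 in males, and Gstp1 lies at -3.85 for the sexes on the normal diet.

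The alpha genes did not pass the edgeR test for diet in either sex when all livers were used. Gsta3, the most abundant alpha gene, was at 2150, 1911, 1743 and 1499 CPM in replicates 1 to 4 of females on the normal diet and at 1335, 1414, 1685 and 1676 CPM on the high fat diet. The diets overlapped, with a log2 fold change of -0.26 ± 0.26 (SE, adjusted p = 0.558). In males the values were 1855, 1230, 1440 and 1284 CPM on the normal diet and 769.7, 2100, 2160 and 1040 CPM on the high fat diet. Replicates 2 and 3 of the high fat group lay above every normal diet male, and replicates 1 and 4 lay below every one. The log2 fold change of Gsta3 in males was 0.06 ± 0.26 (adjusted p = 0.906) with these livers and -0.68 (adjusted p = 0.0378) without replicates 2 and 3.

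Gsta2 was at 33, 37.8, 35.8 and 27.9 CPM in females on the normal diet and at 20.3, 7.34, 4.75 and 19.7 CPM on the high fat diet. The female groups did not overlap, but the high fat livers were spread widely and the log2 fold change of -1.37 ± 0.66 had an adjusted p of 0.203, or of 0.0471 without replicates 2 and 3 of the high fat males, whose spread enters the shared estimate. In males on the normal diet Gsta2 was at 35.5, 43.2, 24.9 and 28 CPM. The high fat males had 2.34, 23, 28.2 and 3.99 CPM, again low in replicates 1 and 4 and near the normal diet values in replicates 2 and 3. The male log2 fold change was -1.19 ± 0.66 (adjusted p = 0.266), and -3.39 (adjusted p = 0.00631) without replicates 2 and 3. Of the 75-base stretches in the annotated transcripts of Gsta2 (GENCODE M21), 36.6% also occur in other genes, 25.4% in Gsta1. The level of Gsta2 is therefore uncertain, by an amount that was not tested.

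Gsta4 was at 97.9, 100, 83 and 64.4 CPM in females on the normal diet and at 76.8, 55.1, 52.2 and 80.6 CPM on the high fat diet, and the groups overlapped (log2 fold change -0.38 ± 0.28, adjusted p = 0.413). In males it was at 81.2, 71.8, 61.4 and 58.6 CPM on the normal diet and at 19.4, 53.6, 58.6 and 28 CPM on the high fat diet. Only replicate 3 of the high fat males reached the lowest normal diet male. The male log2 fold change of -0.77 ± 0.29 missed the threshold in edgeR (adjusted p = 0.0941) and passed it in DESeq2 (adjusted p = 0.0311). It was -1.02 (adjusted p = 0.0426) without replicate 3 alone, and was -1.53 (adjusted p = 0.00116) without replicates 2 and 3. No alpha gene passed the edgeR test between the sexes on either diet with all livers. For Gsta4 on the high fat diet, at 0.73 ± 0.29 (edgeR adjusted p = 0.0832), DESeq2 (adjusted p = 0.0293) and limma on log2(TPM + 1) (adjusted p = 0.0175) called the sexes different. Without replicates 2 and 3 of the high fat males, all 3 were higher in females than in males on the high fat diet, with log2 differences of 2.05 for Gsta2 (adjusted p = 0.0296), 0.76 for Gsta3 (adjusted p = 0.0124) and 1.48 for Gsta4 (adjusted p = 0.000419).

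All 4 mu genes among the 10 had lower mean levels on the high fat diet in both sexes, and 2 of them in females and 3 in males passed the test. Of the mu genes outside the 10, Gstm4 had a higher female mean on the high fat diet (35.5 against 29.7 CPM). Gstm5 (7.81 against 9.28 CPM) and Gstm7 (37.9 against 39.2 CPM) had lower ones. Gstm3 fell in both sexes. It was at 49, 47.5, 53.1 and 42.5 CPM in females on the normal diet and at 22.6, 13.4, 15.9 and 25.1 CPM on the high fat diet. In males it was at 49.7, 54.2, 49.7 and 44.5 CPM on the normal diet and at 8.77, 14, 14.1 and 7.84 CPM on the high fat diet. Every high fat liver lay below every normal diet liver of its sex. The fall was 2.5-fold in females (log2 -1.32 ± 0.2, adjusted p = 0.000478) and 4.41-fold in males (log2 -2.14 ± 0.2, adjusted p = 9.57e-06). Both calls held in all 25 settings tried. On the normal diet the sex difference was -0.04 ± 0.19 on the log2 scale, with an interval of -0.43 to 0.34 at 2 SE (adjusted p = 0.906). Females were 1.71-fold higher on the high fat diet (log2 0.78 ± 0.2, adjusted p = 0.0119), although the livers of the sexes overlapped. That call was lost with only the high fat groups in the fit (adjusted p = 0.0596), and the value was 1.21 (adjusted p = 0.000805) without replicates 2 and 3 of the high fat males. The difference between the diet responses was 0.82 ± 0.28 on the log2 scale (adjusted p = 0.215), and 1.25 (adjusted p = 0.0293) without replicates 2 and 3 of the high fat males.

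Gstm1, the most abundant mu gene, was at 916.1, 927.4, 1012 and 906.6 CPM in females on the normal diet and at 658.6, 707.7, 632.4 and 813.5 CPM on the high fat diet. The female groups did not overlap in CPM, though they did in TPM. The log2 fold change of -0.42 ± 0.16 missed the threshold (adjusted p = 0.0988). It passed without replicates 2 and 3 of the high fat males (adjusted p = 0.0131). With limma on log2(TPM + 1) the female change was -0.19 (adjusted p = 0.464). In males Gstm1 was at 1241, 1265, 1183 and 1226 CPM on the normal diet, a narrow range, and at 430.8, 678.3, 704.6 and 384.2 CPM on the high fat diet. It fell 2.24-fold in males (log2 -1.16 ± 0.16, adjusted p = 0.000253), a call that held in all 25 settings. On the normal diet every female lay below every male, but the log2 difference of -0.39 ± 0.16 was not called (adjusted p = 0.114). It was called in 2 of 25 settings, without replicates 2 and 3 of the high fat males and with only the normal diet groups fitted. Among high fat livers the sex difference was 0.36 ± 0.16 (adjusted p = 0.126), and 0.79 (adjusted p = 0.000436) without replicates 2 and 3 of the males. The difference between the diet responses was 0.74 ± 0.23 (adjusted p = 0.161), and 1.17 (adjusted p = 0.00216) without the similar pair of libraries.

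Gstm6 was at 73.9, 53.9, 63.7 and 62.6 CPM in females on the normal diet and at 42.4, 37, 32.1 and 48.5 CPM on the high fat diet. In males it was at 62.8, 57.8, 56 and 47.6 CPM on the normal diet and at 23.3, 38.9, 37 and 29.2 CPM on the high fat diet. The diets did not overlap in CPM in either sex, though in TPM the female groups did. Gstm6 fell 1.59-fold in females (log2 -0.67 ± 0.16, adjusted p = 0.011) and 1.74-fold in males (log2 -0.8 ± 0.16, adjusted p = 0.00323). The female call was lost when limma was run on log2(TPM + 1), where the log2 change was -0.45 (adjusted p = 0.0665). The difference between the diet responses of the sexes was 0.14 ± 0.22, an interval of -0.3 to 0.58 at 2 SE. Females minus males on the high fat diet was 0.32 ± 0.16 (adjusted p = 0.157), and 0.61 (adjusted p = 0.0219) without the similar pair.

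Gstm2 passed the test between the sexes on both diets. It was at 64.8, 47.9, 78.4 and 61.5 CPM in females on the normal diet and at 38.8, 34.4, 37.3 and 32.3 CPM in males on that diet. On the high fat diet it was at 61.3, 40, 57.9 and 43 CPM in females and at 16.1, 32.4, 30.7 and 15.6 CPM in males. The sexes did not overlap on either diet. Females were 1.77-fold higher on the normal diet (log2 0.82 ± 0.23, adjusted p = 0.0213) and 2.13-fold higher on the high fat diet (log2 1.09 ± 0.23, adjusted p = 0.00372), or by 1.67 on the log2 scale without the similar pair (adjusted p = 3.05e-05). The call on the normal diet was lost in 6 of 25 settings, with adjusted p-values of up to 0.067. These included leaving out replicate 1 (adjusted p = 0.0536) or 3 (0.06) of the females or replicate 2 (0.0539), 3 (0.0511) or 4 (0.062) of the males on that diet. Neither diet change passed, at -0.32 ± 0.22 in females (adjusted p = 0.378) and -0.59 ± 0.23 in males (adjusted p = 0.103). The male value was -0.78 (adjusted p = 0.046) without replicate 2 of the high fat males and -1.17 (adjusted p = 0.00202) without both similar libraries.

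When the expected counts of the 7 mu genes in the tables were summed, the class fell in males by 1.12 ± 0.16 on the log2 scale (adjusted p = 0.000248) and changed by -0.4 ± 0.16 in females (adjusted p = 0.108). The share of 75-base stretches found in another gene was 21.6% for Gstm3, 11.7% for Gstm1, 2.59% for Gstm6 and 1.85% for Gstm2.

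The pi genes had the largest sex differences of the 10 on the normal diet, and Gstp1 had the highest mean TPM of the 10 in males on both diets. Gstp1 was at 225.6, 215.5, 185.3 and 171.3 CPM in females on the normal diet. Males on that diet had 3590, 2499, 2835 and 2609 CPM. Females were 14.5-fold lower on this diet (log2 -3.85 ± 0.41, adjusted p = 2.32e-05), a call that held in all 25 settings. On the high fat diet Gstp1 was at 225.7, 119.1, 124.2 and 205 CPM in females and at 1767, 496.1, 498.7 and 1535 CPM in males. The lowest male on the high fat diet was still above every female, and females were 6.37-fold lower (log2 -2.67 ± 0.39, adjusted p = 0.000368), with a log2 value of -3.29 (adjusted p = 6.21e-08) without replicates 2 and 3 of those males.

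In males Gstp1 fell 2.68-fold on the high fat diet (log2 -1.42 ± 0.37, adjusted p = 0.0232), and the groups did not overlap. The size of the fall differed among the high fat males, since replicates 2 and 3 lay far below replicates 1 and 4. Without replicates 2 and 3 the log2 change was -0.81 (adjusted p = 0.0511), and with their counts averaged into 1 sample it was -1.19 (adjusted p = 0.0523). The call was also lost without replicate 3 alone (adjusted p = 0.0518), without replicate 1 of the normal diet males (adjusted p = 0.0608), with every gene above 0 kept in the fit (0.0736) and with the male groups fitted alone (0.0787). In females the change was -0.24 ± 0.36 (adjusted p = 0.71), and the difference between the diet responses was 1.18 ± 0.52 (adjusted p = 0.348).

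Gstp2 was low in every liver. It was at 1.93, 1.63, 2.31 and 1.22 CPM in females on the normal diet and at 2.27, 1.46, 2.36 and 1.96 CPM on the high fat diet, with a log2 change of 0.2 ± 0.44 (adjusted p = 0.81). In males it was at 12.5, 15.1, 14.1 and 8.34 CPM on the normal diet and at 8.25, 1.7, 1.65 and 3.41 CPM on the high fat diet. It fell 3.34-fold in males (log2 -1.74 ± 0.4, adjusted p = 0.0115). In CPM, replicate 1 of the high fat group lay just below the lowest normal diet male, and in TPM it lay just above. Without replicates 2 and 3 the change was -1.09 (adjusted p = 0.0513), and with only the male groups in the fit the adjusted p was 0.0738. Females were 7.11-fold lower than males on the normal diet (log2 -2.83 ± 0.43, adjusted p = 0.000452). With high fat feeding the sexes overlapped (log2 -0.89 ± 0.42, adjusted p = 0.143). That value was -1.54 (adjusted p = 0.0036) without replicates 2 and 3 of the males and -0.11 (adjusted p = 0.821) without their replicate 1. The difference between the diet responses was 1.94 ± 0.59 (adjusted p = 0.167), which DESeq2 called (adjusted p = 0.0225) and which was 2.71 (adjusted p = 0.00292) without replicate 1 of the high fat males.

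The values of Gstp2 have to be read beside the shared sequence of the pair. In the annotated transcripts, 44.9% of the 75-base stretches of Gstp2 also occur in Gstp1, whose level was far higher. How the counting divided such reads between the copies was not tested. The sum of the 3 pi genes in the tables had log2 values near those of Gstp1, at -1.43 ± 0.37 for diet in males (adjusted p = 0.0231) and -3.79 ± 0.41 for sex on the normal diet (adjusted p = 2.71e-05).

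Gstt3, the theta gene of the group, was higher in females. On the normal diet it was at 116.1, 128.2, 96.8 and 97.5 CPM in females and at 31.3, 23.5, 25.3 and 25.2 CPM in males, a 4.17-fold difference (log2 2.06 ± 0.48, adjusted p = 0.0125). In high fat females it was at 54.6, 91.4, 88.2 and 90.3 CPM. The female diets did not overlap in CPM, though they did in TPM, and the log2 change of -0.44 ± 0.46 had an adjusted p of 0.588. In males on the high fat diet Gstt3 was at 10.9, 64.6, 62.2 and 13.6 CPM, so that replicates 2 and 3 lay above and replicates 1 and 4 below every normal diet male. The male change of 0.53 ± 0.47 (adjusted p = 0.511) became -1.11 (adjusted p = 0.00414) without replicates 2 and 3. The sex difference on the high fat diet was 1.1 ± 0.47 (adjusted p = 0.115) with them and 2.73 (adjusted p = 3.66e-07) without. Of its 75-base stretches, 11.5% lie in Gm20441, a gene annotated on the same strand over the same exons.

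**Figure D2:**
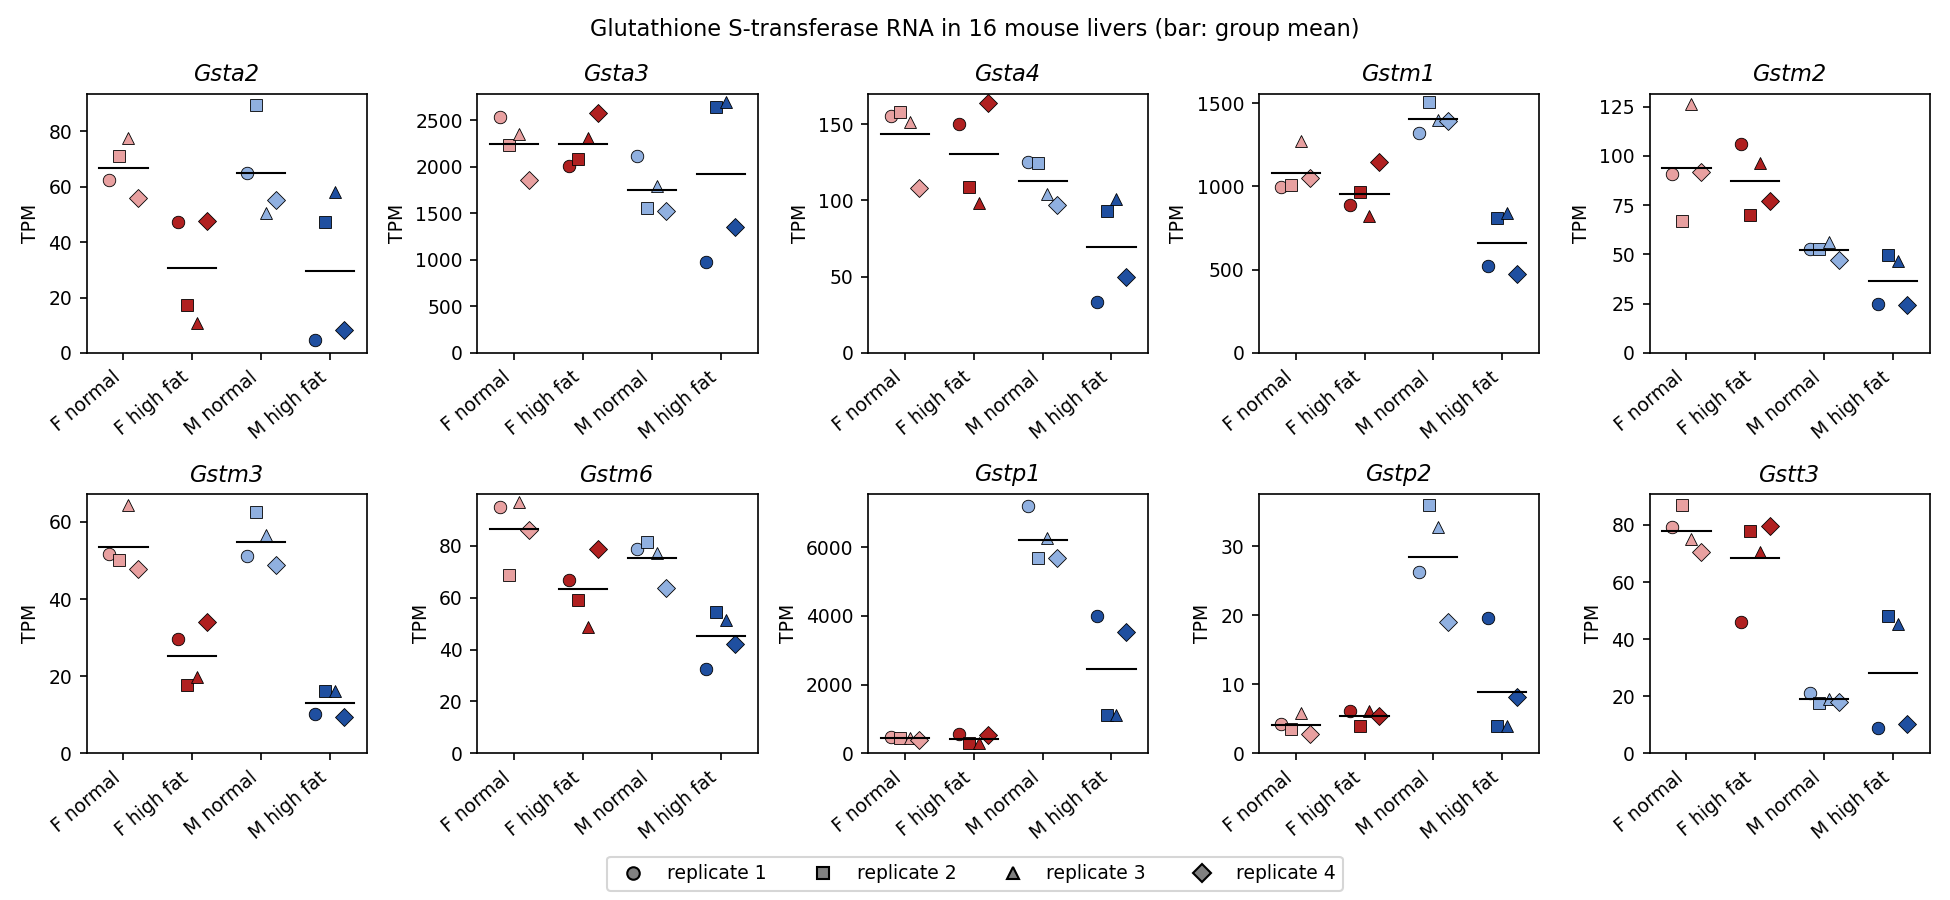
TPM (length-corrected transcript share, y axis, from 0) of each gene in the 16 livers by group, with a marker shape for each replicate and a line at the group mean. Gstp1 means are 432.4 and 431.6 TPM in females and 6205 and 2443 TPM in males on the normal and high fat diet, and the square and triangle of the high fat males sit apart from the circle and diamond in Gsta2, Gsta3, Gstp1 and Gstt3.

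Levels of different genes were compared in TPM, which takes account of transcript length. In females on the normal diet the order of means was Gsta3 (2243 TPM), Gstm1 (1084), Gstp1 (432.4), Gsta4 (143.3), Gstm2 (94.06), Gstm6 (86.46), Gstt3 (77.99), Gsta2 (66.79), Gstm3 (53.52) and Gstp2 (4.075). The first 3 and Gstp2 did not overlap any other gene across livers, and each gene from Gsta4 to Gstm3 overlapped its neighbour in the order. In males on the normal diet Gstp1 led with 6205 TPM, followed by Gsta3 with 1744 and Gstm1 with 1405, and Gstt3 was last with 18.9 TPM. The ranges of Gstp2 and Gstt3 overlapped there, as did those of each neighbouring pair in the order Gstm6, Gsta2, Gstm3 and Gstm2. On the high fat diet the female order kept Gsta3, Gstm1, Gstp1, Gsta4 and Gstm2 in their places. In high fat males the means of Gstp1 (2443 TPM) and Gsta3 (1917 TPM) overlapped across livers, with Gstm1 next at 660.8 TPM.

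Together the 10 genes took 4286 ± 413 TPM (SD, n = 4) in females on the normal diet and 4043 ± 481.3 TPM on the high fat diet. In males the sum was 9762 ± 942.7 TPM on the normal diet and 5252 ± 373.2 TPM on the high fat diet. Gstp1 made up 63.5% ± 1.41 of the sum in normal diet males and 10.1% ± 0.474 in normal diet females. In high fat males its share was 71% and 64.1% in replicates 1 and 4 and 22.9% and 22.5% in replicates 2 and 3, while the sums of these livers lay between 4884 and 5635 TPM. Without Gstp1, the other 9 genes summed to 3853 ± 379.4 TPM in normal diet females and 3558 ± 240.3 TPM in normal diet males, and to 3612 ± 405.5 TPM in high fat females and 2809 ± 1169 TPM in high fat males.

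**Figure D3:**
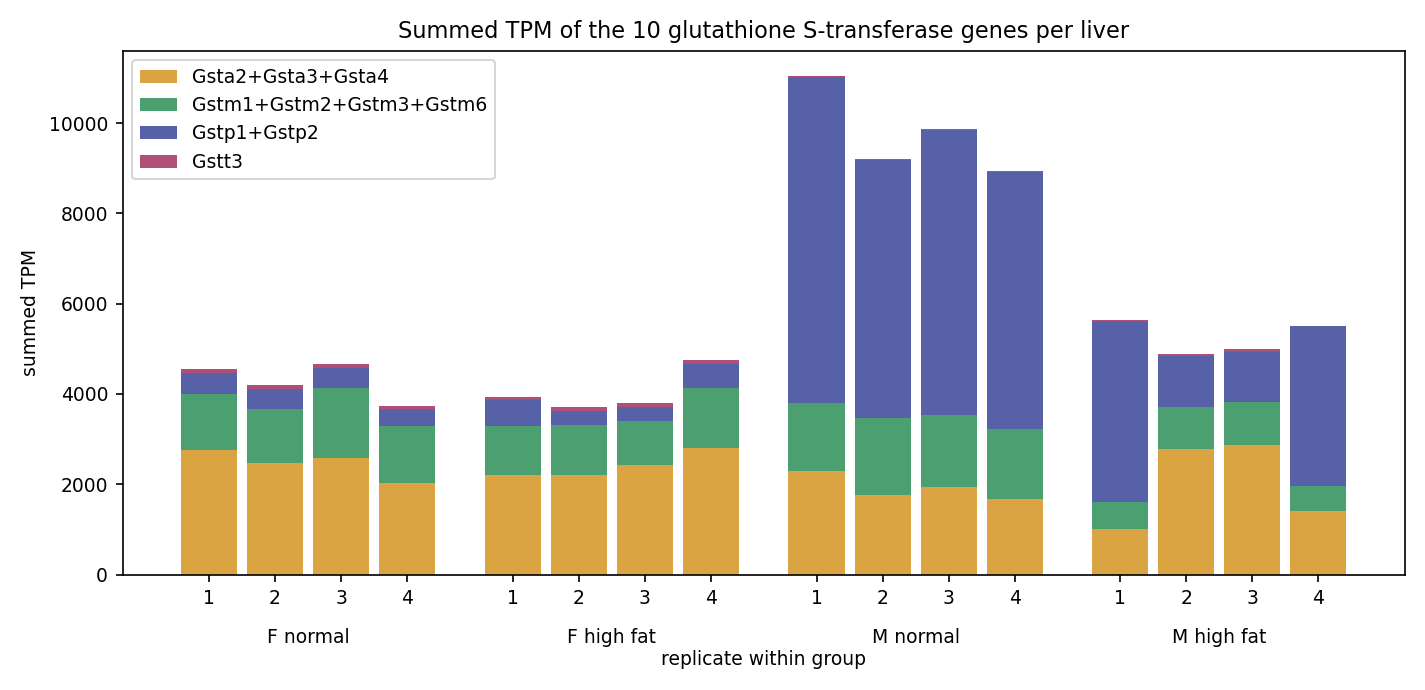
Summed TPM (y axis, from 0) of the 10 genes in each liver, stacked by class and grouped by sex and diet. Normal diet males reach 8939 to 11050 TPM, mostly from Gstp1 and Gstp2, and the high fat males reach similar sums to each other from different mixtures of classes.

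The genes varied among the high fat males in a pattern shared by most of them. In replicates 2 and 3 the alpha, mu and theta genes all lay above the group mean of log2 CPM, by 0.23 for Gstm6 in replicate 3 up to 1.68 for Gsta2 in replicate 3, and both pi genes lay below it, by -0.81 to -0.87. Replicates 1 and 4 had the opposite signs for all 10 genes. Within groups, across the 16 livers, deviations of Gsta3 and Gstt3 had a Pearson correlation of 0.93, those of Gsta2 and Gsta4 one of 0.94, and those of Gstp1 and Gstt3 one of -0.85. These values describe the same 16 libraries, share their depth and scaling, and draw much of their spread from the high fat males. Among the high fat females the spread was smaller and followed another pattern, with Gsta2 and Gstp1 higher in replicates 1 and 4 than in replicates 2 and 3.

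**Figure D4:**
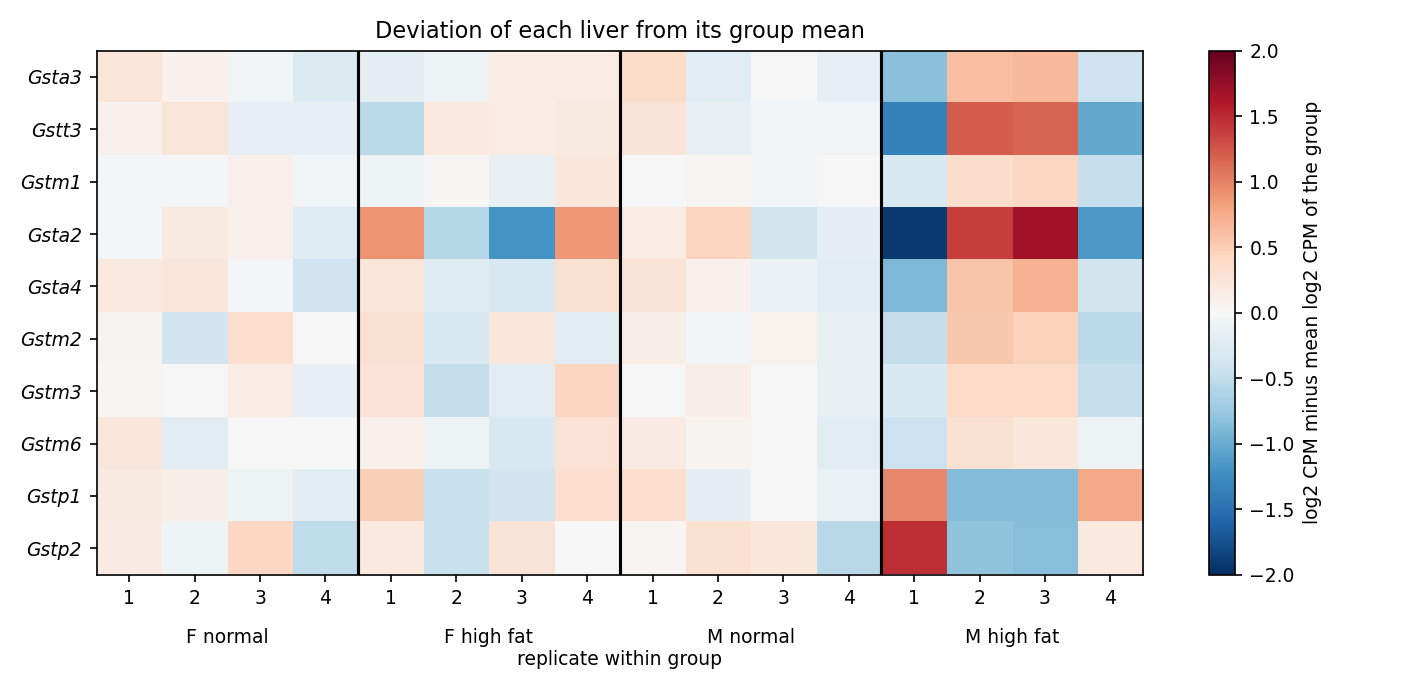
Deviation of log2 CPM from the group mean (colour, scale from -2 to 2) for each gene (rows) in each liver (columns, by group and replicate). In the high fat males replicates 2 and 3 carry values such as 1.38 and 1.68 for Gsta2 and -0.87 and -0.86 for Gstp1, and replicates 1 and 4 carry the opposite signs.

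Marker levels moved with diet as well. Of 8 hepatocyte markers, 3 were called lower with high fat in females and 4 in males, among them Hnf4a in both sexes. Their summed level was 114000 ± 6070 CPM (SD, n = 4) in normal diet females, 91900 ± 6770 in high fat females, 95400 ± 4630 in normal diet males and 69600 ± 11600 in high fat males. In high fat males it was 59000, 79000, 80400 and 60200 CPM in replicates 1 to 4. Albumin made up most of this, at 37640, 58220, 58560 and 39440 CPM. Ttr and Cps1 were also higher in replicates 2 and 3 than in replicates 1 and 4. Serpina1a and Hnf4a were lower there, and Apoa1, Apob and Pck1 overlapped. None of the 8 was at 0 in these livers. Of 8 pericentral hepatocyte markers 4 were called higher in high fat males, among them Glul, and 1 in high fat females, Lgr5. The log2 change was below 0 for 5 of the 8 in females, with a median of -0.09. In males it was below 0 for 1 of the 8, with a median of 0.54. The sum of 6 macrophage markers ranged from 190.5 to 260.1 CPM in normal diet females and from 298.6 to 407.1 CPM in high fat females. In males it ranged from 166.5 to 249.9 CPM on the normal diet and was 289, 174, 151 and 233 CPM in replicates 1 to 4 on the high fat diet. The sum of 6 cholangiocyte markers in those high fat males was 90.1, 54, 49 and 85.9 CPM. Both sums were thus lower in replicates 2 and 3 than in replicates 1 and 4. Spp1 made up most of the cholangiocyte sum, at 82.6, 49.2, 43.6 and 78.8 CPM. The other cholangiocyte markers were at no more than 5.54 CPM. Of these, Epcam and Sox9 were also lower in replicates 2 and 3, Krt7 and Cftr were higher, and Krt19 overlapped. The part of all these markers in the results on the transferases was not tested. In whole liver, fewer cells of a type and less RNA per cell cannot be told apart.

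Calls among other genes of the family went in both directions. Of 14 other glutathione transferase genes tested, 1 rose and 2 fell in females and 1 rose and 3 fell in males, with median log2 changes of -0.09 and 0.03. In females the pi gene Gstp3 rose (log2 1.03 ± 0.25, adjusted p = 0.0127), from 8.21 to 16.8 CPM in the mean, a call lost with only the female groups in the fit (adjusted p = 0.0545). Mgst1, a membrane-bound transferase, fell in females (log2 -0.44 ± 0.11, adjusted p = 0.0163) and was at -0.04 ± 0.11 in males (adjusted p = 0.855). Its female call was lost on log2(TPM + 1) (adjusted p = 0.112) and without replicate 4 of the high fat females (0.0519) or replicate 1 (0.0618) or 2 (0.0554) of the normal diet females. The mu gene Gstm4 fell in males (log2 -0.91 ± 0.14, adjusted p = 0.00049) and was at 0.26 ± 0.14 in females (adjusted p = 0.24). Gsto1, an omega-class enzyme, fell in males (log2 -0.71 ± 0.14, adjusted p = 0.00348) and was at -0.44 ± 0.14 in females (adjusted p = 0.0505). The other calls, named here after their values were seen, were Gstt2, lower in both sexes, and Hpgds, higher in males. Between the sexes on the normal diet, 6 of the 14 were called higher in females and none lower. Of all genes 7.03% were higher and 8.68% lower. With high fat feeding 7 of the 14 were higher and 1 lower, beside 8.84% and 11.6% of all genes.

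Of 17 genes of glutathione synthesis, recycling and peroxidase reactions, 1 rose and 2 fell in females and 1 rose and 3 fell in males. Ggct, which opens gamma-glutamyl peptides, rose in both sexes, by 0.57 ± 0.12 on the log2 scale in females (adjusted p = 0.00578) and 0.69 ± 0.12 in males (adjusted p = 0.00167). Gss, the synthetase of the last step of glutathione synthesis, fell in males (log2 -0.64 ± 0.1, adjusted p = 0.000825). In females Gss was near the threshold (log2 -0.33 ± 0.1, adjusted p = 0.0446), and it missed it in most alternatives, for example without replicate 3 of the high fat females (adjusted p = 0.132). Glrx, a glutaredoxin, fell in females (log2 -0.88 ± 0.14, adjusted p = 0.00067) and was at -0.22 ± 0.14 in males (adjusted p = 0.317).

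Of 12 tested genes of the mercapturate pathway and conjugate export, 2 rose and 1 fell in females and 1 fell in males. The export pump Abcc4 fell in both sexes, by 0.76 ± 0.2 on the log2 scale in females (adjusted p = 0.0193) and by 0.96 ± 0.21 in males (adjusted p = 0.00733). The female call was lost on log2(TPM + 1) (adjusted p = 0.0735), without replicate 1 (0.0554) or 3 (0.0567) of the high fat females and without replicate 1 (0.0617) or 2 (0.0711) of the normal diet females, and the male call was lost there (adjusted p = 0.106) and without replicates 2 and 3 of the high fat males (adjusted p = 0.0623). Acy3, an aminoacylase that acts on mercapturates, rose in females (log2 0.42 ± 0.1, adjusted p = 0.0147) and was at 0.04 ± 0.1 in males (adjusted p = 0.862). The female call was lost without replicate 4 of the high fat females (adjusted p = 0.0555). The pump Abcc2 passed in neither sex, at -0.26 ± 0.18 in females (adjusted p = 0.368) and -0.3 ± 0.18 in males (adjusted p = 0.305).

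Of 22 genes of the NRF2 pathway, 2 rose and 2 fell in females and 5 fell in males, beside medians of 0.07 and -0.18. Nfe2l2 itself rose in females (log2 0.36 ± 0.1, adjusted p = 0.0224) from 56.4 to 72.3 CPM in the mean, and was at -0.18 ± 0.1 in males (adjusted p = 0.245). The female call was lost without replicate 4 of the high fat females (adjusted p = 0.0682) and without replicate 1 (0.0517) or 4 (0.0568) of the normal diet females. Keap1, the adaptor that keeps NRF2 low, was at 0.09 ± 0.09 in females (adjusted p = 0.567) and -0.09 ± 0.09 in males (adjusted p = 0.528). Srxn1, the sulfiredoxin that repairs peroxiredoxins, rose in females (log2 0.67 ± 0.16, adjusted p = 0.0118) and was at 0.24 ± 0.16 in males (adjusted p = 0.355). Its female call was lost without replicate 4 of the high fat females (adjusted p = 0.0528). Cbr1, a carbonyl reductase, and Ephx1, the microsomal epoxide hydrolase, fell in males, by 0.9 ± 0.17 (adjusted p = 0.00321) and 1.02 ± 0.2 (adjusted p = 0.00348) on the log2 scale. Without replicates 2 and 3 of the high fat males 8 genes of this list were called in males, beside 7.61% of all genes.

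Of 21 genes of the CAR and PXR pathway, 8 fell and none rose in females, and 9 fell and 1 rose in males, with medians of -0.79 and -0.38. Cyp2c55 fell 7.03-fold in females (log2 -2.81 ± 0.25, adjusted p = 7.15e-06) and 14-fold in males (log2 -3.8 ± 0.26, adjusted p = 5.79e-08). Ces2a, a carboxylesterase, fell 3.13-fold in females (log2 -1.65 ± 0.14, adjusted p = 3.57e-06) and 4.81-fold in males (log2 -2.26 ± 0.14, adjusted p = 1.71e-08). Nr1i2 fell by 0.79 ± 0.1 in females (adjusted p = 0.000109) and by 0.41 ± 0.1 in males (adjusted p = 0.0143), and the male call was lost on log2(TPM + 1) (adjusted p = 0.0583). Nr1i3 was at -0.18 ± 0.22 in females (adjusted p = 0.655) and 0.17 ± 0.22 in males (adjusted p = 0.671). The 1 gene that rose in males, named after its value was seen, was Cyp2b9. It was at 3.31, 96.2, 95.8 and 6.51 CPM in the high fat males and at no more than 1.68 CPM in the normal diet males. Its log2 change was 6.15 ± 1.14 (adjusted p = 0.00476), and 2.76 ± 0.64 (adjusted p = 0.0232) without replicates 2 and 3.

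The genes most like a given transferase were taken by Pearson correlation of log2 CPM over the 16 livers, outside the family. For Gstm3, which had the smallest p of the 10 in both diet tests, they were Cyp3a11 (0.962), Cyp3a59 (0.939) and Ces2a (0.938). Cyp3a11, a steroid and drug hydroxylase, was at 7418 ± 180.1 CPM (SD, n = 4) in normal diet females, 2213 ± 189.1 in high fat females, 10340 ± 671.1 in normal diet males and 815.5 ± 562.2 in high fat males. For Gstp1, which had the smallest p between the sexes on the normal diet, they were Cyp7b1 (0.977), Serpina1e (0.974) and Ugt2b38 (0.973). These coefficients rest on group differences shared by the same libraries and are given as a description.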

How the data were processed

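The authors deposited expected counts per gene and TPM for the 16 liver libraries. STAR, RSEM and the build GRCm39 are named in the submitters' processing notes, without versions, and the strand setting and annotation were not given in the sources used here. Of the deposited expected counts 4.89% were not whole numbers (tolerance 0.001), and all were rounded before testing. Deposited TPM values were used to compare levels between genes. Libraries held 22228115 to 41420589 counts. Counts were filtered with filterByExpr, scaled by TMM and tested with the quasi-likelihood test of edgeR 4.0.16 (R 4.3.3), two-sided, with 1 mean per group over all 16 libraries and Benjamini-Hochberg adjustment over 14781 genes. SE was taken as the size of a log2 fold change over the root of its F statistic. The procedure was tested on simulated data. Alternatives used DESeq2 1.42.0, limma 3.58.1 on log2 TPM plus 1 or 0.1, another scaling, no filter, a replicate block, fewer libraries, averaged libraries and class sums.

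The members and lists were chosen with earlier results of these data known. The genes named were the 10 members, Albumin, Nfe2l2, Keap1, Nr1i3 and Nr1i2, the 2 genes of smallest p per list and diet test, and the 3 genes outside the family most correlated with a leading member. In the list of other transferases, 17 of 19 symbols were matched. Symbols came from a supplied table that matched 51487 of 78317 identifiers, which held 98.97% of counts. The supplied genome annotation is of an older build than the files, so it was used for promoter sequences and shared transcript sequence only, with 75 bases as an assumed read length.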

Additional observations from a re-analysis of the deposited data

Results flagged for a closer look

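Gstt3 in replicate 1 of the females on the high fat diet, at 54.6 CPM, lay far from the other 3 livers of that group, which lay between 88.2 and 91.4 CPM. The gap took up 0.915 of the group's range, above Dixon's limit for 4 samples. In all, 40 gene and group combinations were examined, and chance flags about 1 in 20.

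The diet response of Gstm4, a mu gene outside the 10, differed between the sexes, with a difference of 1.17 ± 0.2 on the log2 scale (SE, edgeR, adjusted p = 0.00629). Its mean was 29.7 CPM on the normal diet and 35.5 CPM on the high fat diet in females, and 35 and 18.6 CPM in males. The difference remained called in every alternative that gave a value for it.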

How the results depend on the processing

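In all, 25 alternatives were tried for each comparison of groups. Of the alternative values for the 10 genes, 1228 stayed on their side of the threshold, among them 37 uncalled values that changed sign, 39 passed it newly, 19 lost it and 4 with a call on one side reversed. Without replicates 2 and 3 of the high fat males, Gsta3 (-0.68) and Gstt3 (-1.11) reversed for diet in males and Gsta2 (2.05) for sex on the high fat diet. In the sum of the mu class, the value for sex on the normal diet was -0.27, opposite to Gstm2. Without that pair the number of the 10 genes called was 4 for diet in females, 8 for diet in males, 2 for the interaction and 10 for sex on the high fat diet (main values 2, 5, 0 and 3), and of all genes 1710, 1182, 131 and 2704 were called. With the pair averaged, 5 were called for sex on the high fat diet, beside 1147 of all genes higher and 1445 lower. DESeq2 called 1 for the interaction, beside 341 of all genes. A fit to only the male groups called 3 for diet, beside 792 of all genes higher and 646 lower. On log2(TPM + 1), 1 was called for diet in females and 7 for sex on the high fat diet, and the same numbers, 1 and 7, on log2(TPM + 0.1). Of all genes, log2(TPM + 1) called 2644 higher and 282 lower for diet in females, and 2957 and 753 for sex on the high fat diet. On log2(TPM + 0.1) these numbers were 2487 and 276, and 2808 and 737.

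Leaving out 1 library at a time, the number called was 2 to 2 for diet in females, 4 to 6 for diet in males, 0 to 1 for the interaction, 3 to 4 for sex on the normal diet and 3 to 5 for sex on the high fat diet. Over all genes the ranges were 947 to 1874, 1113 to 2043, 51 to 176, 1325 to 2766 and 1974 to 3062, beside 1700, 1684, 100, 2322 and 3022. The lowest came without female high fat replicate 4, male normal replicate 3, female normal replicate 2 (for both the interaction and sex on the normal diet) and male high fat replicate 4. Summed TPM ranged from 4160 to 4467 (females, normal diet), 3807 to 4155 (females, high fat), 9333 to 10040 (males, normal) and 5125 to 5375 (males, high fat).

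Scaling moved the split of all genes. For diet in females 848 were higher and 852 lower by edgeR, against 2644 and 282 (2926 in all) on log2(TPM + 1), where the median gene lay at 0.15, and 2487 and 276 (2763) on log2(TPM + 0.1), with a median of 0.22. For diet in males the splits were 891 and 793 by edgeR and 899 and 443 on log2(TPM + 1), with a median of 0.05. For sex on the high fat diet they were 1306 and 1716 against 2957 and 753, with a median of 0.1, and for the interaction 39 and 61 against 59 and 38, with a median of 0.11. DESeq2 called 341 genes for the interaction, averaging the pair gave 58, and a fit to only the high fat groups gave 1958 for sex. The cause of these changes was not tested.

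With the replicate number as a block, the numbers of the 10 genes called were 2, 5, 0, 4 and 3, and over all genes 1864, 1980, 101, 2685 and 3445. Deviations of same-numbered libraries correlated at -0.16 to 0.18, and in 8 of 16 comparisons a library correlated best with its own number (4 of 4 for sex on the normal diet, 2 for sex on the high fat diet, and 1 for diet in each sex). Correlations were not all above 0.1 in any comparison, so the numbers were not taken as pairs. The sum by class gives no number of the 10 genes called. With 4 livers a group, responses smaller than about 2 SE cannot be told from none. Some beyond 2 SE also missed the adjusted threshold in edgeR, such as the difference between the diet responses of Gstm1 (0.74 ± 0.23, adjusted p = 0.161). Shared transcript sequence limits Gstp2 and Gsta2, and depth limits Gstp2.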
